A study of Mus musculus with 12 samples.

Results

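The 9 enzymes followed here, of the methionine cycle and the one-carbon supply around it, were measured in mouse liver: Bhmt, Bhmt2, Mat1a, Gnmt, Ahcy, Cbs, Cth, Pemt and Mtr. They were taken by gene name from the count tables, and all 9 were found among 54532 genes and passed the filter on low counts in every comparison. Male PPARγ flox/flox mice received, at 8 weeks of age, an adeno-associated virus carrying Cre (AAV8-TBG-Cre, labelled PPARγ-KO) or eGFP (AAV8-TBG-eGFP, labelled WT). Both vectors use the hepatocyte-directed thyroxine-binding globulin promoter, so the wild-type littermates carry the floxed alleles and a virus too, and non-hepatocytes were not targeted in either group. All mice were then kept on a fast-food diet (FFD), rich in saturated fat, cholesterol and sucrose with sugared drinking water, for 2 or 5 months. Each of the 4 groups had 3 liver RNA-seq libraries, labelled as repeats, so the p-values measure the spread between these 3 samples.

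In the methionine cycle, Mat1a makes S-adenosylmethionine (SAM), the methyl donor of the cell, from methionine. Gnmt and Pemt spend SAM on glycine and on phosphatidylethanolamine, Ahcy splits the S-adenosylhomocysteine that is left, and homocysteine is either methylated back to methionine or drained into cysteine. Bhmt uses betaine and Mtr uses methyltetrahydrofolate with cobalamin for the way back, Bhmt2 uses S-methylmethionine, and Cbs and Cth carry out both steps of transsulfuration. Liver is the main site of most of these reactions, and the cycle is known there for its ties to phosphatidylcholine and lipid export.

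The 12 libraries held 16367775 to 27452284 counts each, and the 9 enzymes took 0.67% to 1.08% of them. The summed level of 10 hepatocyte markers, such as Alb and Apob, was 64910 to 97630 normalized CPM (read counts over the TMM-scaled library size), as liver tissue should show. Wild-type replicate 1 at 2 months stood apart from its group: chi-square per gene was 31.7 and 27.6 against the other wild-type replicates at that time and 2.44 to 17.5 in every other pair of replicates. The 2.44 was that of wild-type replicates 2 and 3 at 5 months, an unusually close pair, and the next lowest value was 9.4. The wild-type spread at 5 months thus rests in part on this close pair. The transcript of Pparg, the targeted gene, was higher rather than lower under the label PPARγ-KO. Its normalized CPM at 2 months were 38.8, 41.4 and 37.7 in wild-type and 50.5, 66.5 and 52.1 under the label PPARγ-KO (log2 fold change 0.52, SE 0.107, adjusted p = 0.0309). At 5 months they were 36.9, 41.4 and 37.1 against 86.6, 93.0 and 75.1 (1.15, SE 0.0847, adjusted p = 2.57e-06). The groups did not overlap at either time. Counts were per gene and from whole liver, so loss of the floxed exons in hepatocytes could not be read from them, and this check settles the labels neither way. At 2 months the call for Pparg was lost with library size alone as the scaling and without any 1 of the replicates other than wild-type replicate 1, with adjusted p up to 0.117. Of 3 known targets of the receptor, chosen after the data were seen and so no independent check, the lipid droplet genes Plin2 and Cidec were lower at both times. Cidec was at 99.9 to 178 CPM in wild-type and 7.53 to 13.4 under the label PPARγ-KO at 2 months (log2 -3.85, adjusted p = 0.0117) and at 141 to 148 and 17.2 to 26.5 at 5 months (-2.70, adjusted p = 2.91e-06). Plin2 differed by log2 -0.73 (adjusted p = 0.011) and -0.74 (adjusted p = 1.25e-05). Cd36, a fatty acid transporter, did not pass (-0.81, adjusted p = 0.0758, and -0.07, adjusted p = 0.465). At 2 months Cidec lost its call with the replicate block (adjusted p = 0.0854) and without PPARγ-KO replicate 3 (0.0644), and Plin2 without wild-type replicate 3 (0.0521).

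In the files' build, mm10, the genes lie as follows, each a protein-coding gene. Bhmt (ENSMUSG00000074768) spans chr13:93616675-93637961 and Bhmt2 (ENSMUSG00000042118) chr13:93655720-93674302, 17758 bases apart on the minus strand. Mat1a (ENSMUSG00000037798) spans chr14:41105035-41124412 on the plus strand. The others are on the minus strand: Gnmt (ENSMUSG00000002769) at chr17:46725664-46729168, Cbs (ENSMUSG00000024039) at chr17:31612623-31637199, Ahcy (ENSMUSG00000027597) at chr2:155059310-155074497, Cth (ENSMUSG00000028179) at chr3:157894248-157925077, Pemt (ENSMUSG00000000301) at chr11:59970614-60046489 and Mtr (ENSMUSG00000021311) at chr13:12182712-12258113.

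The sequences before the starts of Bhmt, Gnmt and Bhmt2 are shown because these enzymes had the largest differences between the genotypes at 5 months, and because the deleted factor belongs to the nuclear receptors, which bind the half-site AGGTCA. They come from RefSeq (GRCm38.p6, the minus strand, read 5′ to 3′), whose table held 7 of the 9 enzymes, all but Mat1a and Cth. Capitals mark an AGGTCA half-site, a CCAAT box or a GC box (GGGCGG), on either strand. Bases inside the deposited gene models are left out, apart from 25 bases close to the RefSeq start of Bhmt.
Bhmt, chr13:93637962-93638008: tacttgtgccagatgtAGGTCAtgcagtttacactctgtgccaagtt
Bhmt, chr13:93637800-93637824: gaggcctgctATTGGacaaAGGTCA
Gnmt, chr17:46729169-46729415: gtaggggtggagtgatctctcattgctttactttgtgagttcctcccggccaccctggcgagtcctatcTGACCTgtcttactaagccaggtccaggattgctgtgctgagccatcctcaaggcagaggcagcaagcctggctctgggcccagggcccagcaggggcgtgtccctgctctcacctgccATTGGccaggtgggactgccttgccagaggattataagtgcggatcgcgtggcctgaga
Bhmt2, chr13:93674303-93674552: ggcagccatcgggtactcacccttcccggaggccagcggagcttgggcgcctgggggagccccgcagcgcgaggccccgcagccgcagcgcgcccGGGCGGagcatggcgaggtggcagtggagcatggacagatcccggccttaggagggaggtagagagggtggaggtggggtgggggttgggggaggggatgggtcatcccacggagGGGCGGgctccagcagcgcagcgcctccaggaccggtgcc

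Over the 250 bases before the start, Bhmt held 3 half-sites, at 234 to 229, 72 to 67 and 47 to 42 bases before it, and a CCAAT box. Gnmt held 1 half-site, 181 to 176 bases before its start, with a CCAAT box, and Ahcy held 1, 205 to 200 bases before, with a CCAAT box and a GC box. The window of Bhmt2 had no half-site and 2 GC boxes, and neighbouring Bhmt and Bhmt2 thus shared none of these motifs. Cbs held an E-box (CACGTG) besides CCAAT and GC boxes, Mtr held CCAAT and GC boxes, and one of the windows of Pemt held a CCAAT box. Of all 32851 windows of this length, 14% held a half-site, 0.131% held 3 or more, 33.8% a CCAAT box, 32.7% a GC box and 6.02% an E-box. The cutoff of 3 equals the number in Bhmt, which was shown because of its difference, so the 0.131% is no test of Bhmt. Neither a pair of half-sites in the same direction 1 base apart (AGGTCA, any base, AGGTCA; 11 windows, 0.0335%) nor the HNF4 word CAAAGTCCA (0.384%) was found in the windows of these enzymes. Only exact matches were searched for, so imperfect forms of these motifs would have been missed. The matches found describe letters in a window and were not tied to binding.

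Per kilobase of gene model, Mat1a, Gnmt, Bhmt and Ahcy were the most abundant of the 9 in every group, and Mtr was the least. In wild-type livers at 2 months, the level of Mat1a was 905 ± 125 CPM per kilobase (SD, n = 3), above Gnmt at 546 ± 181. Gnmt, Bhmt (381 ± 121) and Ahcy (333 ± 89.4) overlapped each with its neighbour in the order there, while Ahcy stood 3.61 times above Pemt without overlap. Pemt, Cbs, Bhmt2 and Cth followed between 92.1 and 54.5 CPM per kilobase and overlapped in turn. Mtr, the cobalamin-dependent enzyme, was at 2.18 ± 0.0964, and Cth, next above it, at 54.5 ± 14.4 without overlap.

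At 5 months Gnmt led the order in both genotypes. It was level with Mat1a in wild-type (650 ± 43.6 and 626 ± 5.19 CPM per kilobase, overlapping). In the libraries labelled PPARγ-KO it was 1.27 times above Mat1a, without overlap (1046 ± 67.6 and 823 ± 62.2). Bhmt (776 ± 88.0) overlapped Mat1a in those libraries, and Pemt, Cbs and Bhmt2 lay between 108 and 109 CPM per kilobase and overlapped.

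**Figure D1:**
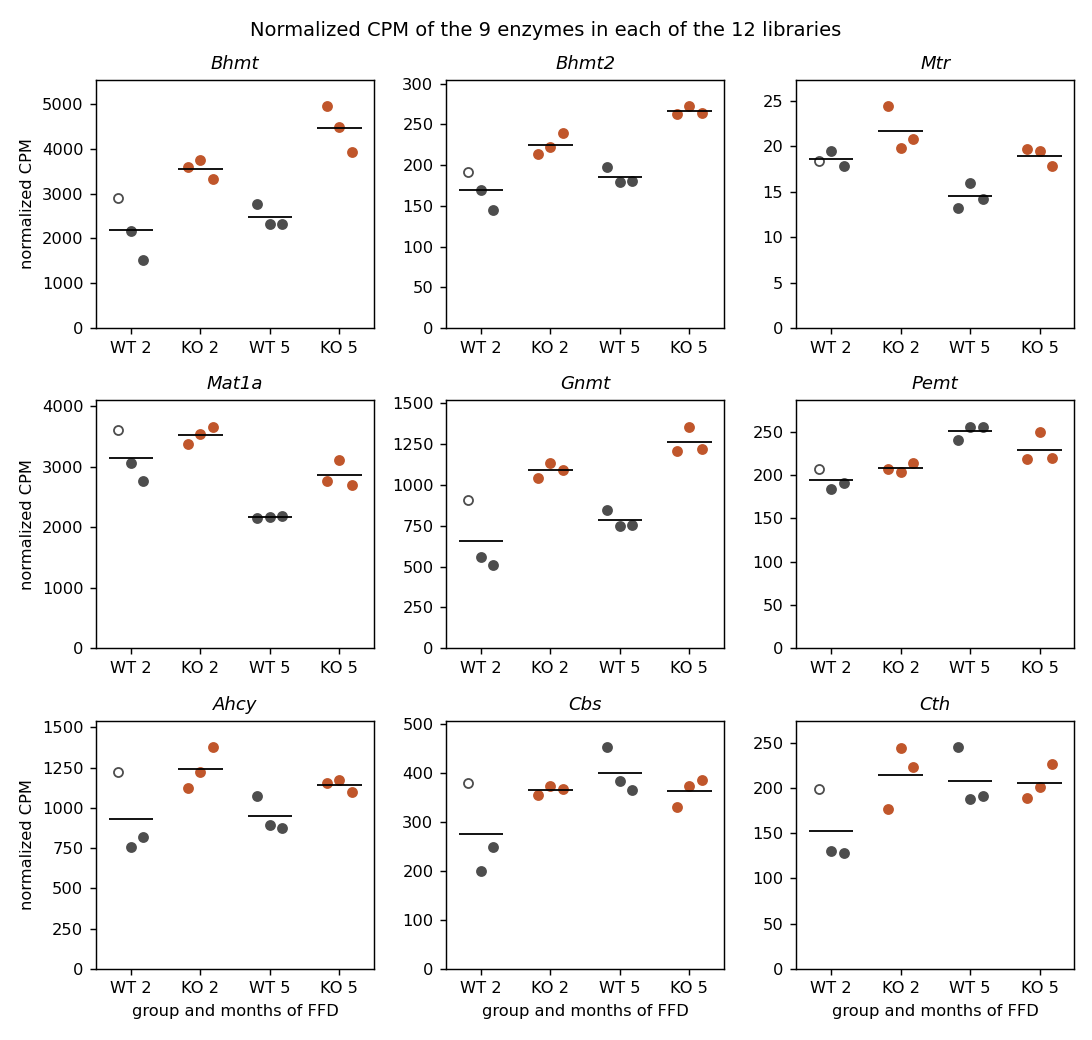
Normalized CPM of each enzyme (vertical axis, from 0) in the 12 libraries, by genotype label and months of FFD; points are libraries, lines are group means, and the open point is wild-type replicate 1 at 2 months. At 5 months the libraries labelled PPARγ-KO lie above every wild-type library for Bhmt, Bhmt2, Mtr, Mat1a, Gnmt and Ahcy, and among the wild-type libraries of 2 months the open point is the highest for 8 of the 9 enzymes, all but Mtr.

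The first question was whether these enzymes differed between the genotypes after 5 months of FFD. Bhmt, Bhmt2, Mtr, Mat1a, Gnmt and Ahcy were higher in the libraries labelled PPARγ-KO, and Cbs, Cth and Pemt did not pass the test. Thus 6 of the 9 rose and 0 fell, where 18.4% of the 14138 genes tested passed in either direction and 8.9% were higher. The same 6 enzymes did not overlap between the groups, where 15.9% of all genes lay higher without overlap. The median log2 fold change of the 9 was 0.40, and that of all genes tested was -0.0058. Summed over the 9, the level was 7153 to 7992 normalized CPM in wild-type and 10070 to 11250 in the libraries labelled PPARγ-KO.

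Among the remethylation enzymes at 5 months, Bhmt measured 2771, 2330 and 2326 normalized CPM in the wild-type libraries. It measured 4954, 4501 and 3943 in those labelled PPARγ-KO. All 3 of the latter were above all 3 of the former, a 1.82-fold difference (95% interval 1.56 to 2.12; log2 0.86, SE 0.102, adjusted p = 9.99e-05). Bhmt2, its neighbour on chromosome 13, measured 198, 179 and 181 against 263, 272 and 264 CPM. The groups were separate by a wide margin next to their spread, with a 1.44-fold difference (1.31 to 1.59; log2 0.53, SE 0.0639, adjusted p = 0.000115). Mtr measured 13.2, 16.0 and 14.2 against 19.7, 19.4 and 17.8 CPM. It was higher without overlap by 1.32-fold (1.14 to 1.54; log2 0.40, SE 0.101, adjusted p = 0.0141), and without wild-type replicate 3 its adjusted p was 0.0554.

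For the enzymes that make and use SAM, Gnmt measured 844, 750 and 756 CPM in wild-type at 5 months. It measured 1209, 1356 and 1220 in the libraries labelled PPARγ-KO, so that the groups were far apart, at 1.62-fold (1.44 to 1.83; log2 0.70, SE 0.079, adjusted p = 7.34e-05). Mat1a, which supplies the SAM that Gnmt uses, measured 2154, 2167 and 2190 against 2760, 3101 and 2701 CPM. The wild-type libraries were tightly grouped and all below the others, and the difference was 1.32-fold (1.17 to 1.49; log2 0.41, SE 0.0803, adjusted p = 0.00358). Pemt, which makes phosphatidylcholine with SAM, measured 240, 256 and 255 against 218, 249 and 219 CPM. Its groups overlapped, and the fold was 0.921 (0.828 to 1.03; log2 -0.12, SE 0.0714, adjusted p = 0.295).

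Downstream of SAM, Ahcy measured 1075, 895 and 875 CPM in wild-type at 5 months and 1152, 1174 and 1095 under the label PPARγ-KO. The groups did not overlap, but the highest wild-type library lay close below the others, and the difference was the smallest of the 6 that passed, at 1.21-fold (1.07 to 1.38; log2 0.28, SE 0.0856, adjusted p = 0.0396). The call for Ahcy held in 7 of 14 alternative fits. Its adjusted p was 0.174 without wild-type replicate 2, 0.181 without wild-type replicate 3, 0.0848, 0.104 and 0.072 without PPARγ-KO replicate 1, 2 or 3, 0.0567 with library size alone as the scaling and 0.298 in the fit of all 12 libraries. The calls for Bhmt, Bhmt2, Gnmt and Mat1a held in all 14.

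The transsulfuration enzymes stood at like levels in both genotypes at 5 months. Cbs, which joins homocysteine and serine, measured 453, 384 and 364 against 330, 373 and 386 CPM, and the groups overlapped. Cth, which releases cysteine, measured 245, 187 and 191 against 188, 201 and 226 CPM, and overlapped as well. The fold was 0.914 for Cbs (95% interval 0.80 to 1.04, adjusted p = 0.363) and 0.995 for Cth (0.845 to 1.17, adjusted p = 0.973).

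**Figure D2:**
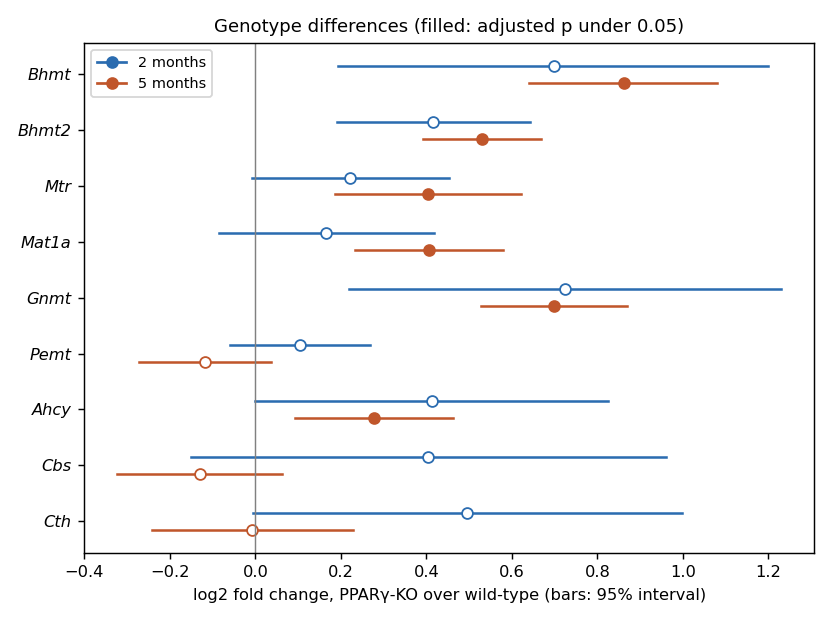
Log2 fold change of each enzyme in the libraries labelled PPARγ-KO over wild-type (horizontal axis) at 2 and 5 months of FFD; bars are 95% intervals and filled points have an adjusted p under 0.05. At 5 months 6 points are filled, all to the right of 0 from 0.28 for Ahcy to 0.86 for Bhmt, and at 2 months none, where the intervals are wider.

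The summed level of the hepatocyte markers moved with these differences. It was 64910 to 69370 normalized CPM in wild-type and 83780 to 95450 in the libraries labelled PPARγ-KO, but 5 of the 10 markers were fitted higher and 5 lower, 2 passed the test, both higher, and the median log2 fold change was 0.0657. Macrophage markers went the other way, at 1418 to 1662 against 668 to 891 CPM, with 9 of 10 lower, and so did stellate cell markers (745 to 884 against 580 to 640, with 5 of 10 lower). Of the endothelial markers 5 of 10 were lower, of the B, T and NK cell markers 2 of 9 tested and of the neutrophil markers 2 of 3, while 1 of 8 cholangiocyte markers was higher. None of these macrophage, stellate cell or hepatocyte markers was at 0 in any group. Their part in the differences of the 9 enzymes was not tested, and in whole liver fewer cells of a type and less RNA per cell cannot be told apart. Hnf4a, a nuclear receptor that drives hepatocyte genes, measured 548, 492 and 503 CPM in wild-type at 5 months and 615, 597 and 645 under the label PPARγ-KO. It was higher without overlap (log2 0.28, SE 0.0705, adjusted p = 0.0151), and lost the call without wild-type replicate 2 or 3 or PPARγ-KO replicate 3, with adjusted p up to 0.093. At 2 months Hnf4a measured 516, 421 and 440 against 549, 584 and 573 CPM. It lay higher without overlap there too, by a like amount, but did not pass (log2 0.31, SE 0.0935, adjusted p = 0.105), and it passed in 4 of 14 alternative fits, among them that without wild-type replicate 1 (adjusted p = 0.00344).

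The same comparison at 2 months asked whether the enzymes differed early on the diet. All 9 were fitted higher in the libraries labelled PPARγ-KO, by log2 0.10 for Pemt to 0.73 for Gnmt, where 49.1% of all genes were fitted higher, but 0 of them passed edgeR's test after adjustment. Of all 14573 genes tested, 3.56% passed. Bhmt, Bhmt2, Gnmt and Mtr lay higher without overlap, 4 of 9 where 12.1% of all genes did. At an unadjusted p under 0.05 there were 3 (Bhmt, Bhmt2 and Gnmt), and DESeq2 called the same 3. The median log2 fold change of the 9 was 0.41 and that of all genes -0.0048.

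Bhmt at 2 months measured 2904, 2165 and 1510 CPM in wild-type and 3596, 3744 and 3331 under the label PPARγ-KO. The wild-type libraries were spread widely, and all lay below the others, at 1.62-fold (95% interval 1.14 to 2.3; log2 0.70, SE 0.216, adjusted p = 0.138). With the replicate number as a block, an alternative fit, the adjusted p of Bhmt was 0.0295. The labels number the repeats and state no pairing. Bhmt2 measured 192, 169 and 145 against 214, 222 and 239 CPM, without overlap and at 1.33-fold (1.14 to 1.56; log2 0.42, SE 0.101, adjusted p = 0.0565). Gnmt measured 909, 558 and 509 against 1044, 1133 and 1090 CPM, and wild-type replicate 1 was nearer to the other genotype than to its own group. The fold of Gnmt was 1.65 (1.16 to 2.35; log2 0.73, SE 0.214, adjusted p = 0.128).

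Mtr measured 18.3, 19.5 and 17.9 CPM in wild-type at 2 months against 24.4, 19.9 and 20.7, a narrow gap (log2 0.22, SE 0.104, adjusted p = 0.284). For the 5 remaining enzymes wild-type replicate 1 reached the levels of the libraries labelled PPARγ-KO. Ahcy measured 1220, 757 and 821 against 1125, 1224 and 1376 CPM, Mat1a 3607, 3057 and 2755 against 3378, 3533 and 3657, and Cth 199, 130 and 128 against 177, 244 and 223. Cbs measured 379, 199 and 249 against 355, 373 and 367 CPM, with wild-type replicate 1 above all 3. Pemt was the most even, at 207, 184 and 190 against 207, 203 and 214 CPM. Adjusted p ran from 0.265 for Ahcy to 0.501 for Pemt.

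Leaving out wild-type replicate 1 changed the count at 2 months from 0 to 7. Without it Gnmt differed by log2 1.03 (adjusted p = 3.36e-05), Bhmt by 0.95 (0.0158), Cth by 0.74 (0.013), Cbs by 0.71 (0.000894), Ahcy by 0.66 (0.00109), Bhmt2 by 0.52 (0.00251) and Mat1a by 0.28 (0.0366), while Mtr and Pemt did not pass. Leaving out any other library left 0 called. The calls over all genes moved along, from 519 with all 6 libraries to 1577 without that library. At 2 months hepatocyte markers summed to 65880 to 80270 CPM in wild-type and 84300 to 97630 under the label PPARγ-KO. Of these 10 markers 9 were fitted higher and 1 lower, with a median log2 fold change of 0.332, near the 0.412 of the 9 enzymes. Of the same markers 1 passed, higher. Macrophage markers summed to 499 to 644 and 513 to 601 CPM. Stellate cell markers lay lower without overlap, at 622 to 796 and 483 to 508 CPM, with 8 of 10 fitted lower and 1 passing. The sum of the cholangiocyte markers lay lower too, at 120 to 201 and 87.2 to 110 CPM. Of the 9 tested, however, 6 were fitted higher and 3 lower (median log2 fold change 0.0628), and 0 passed. Their part in the differences at 2 months was not tested.

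**Figure D3:**
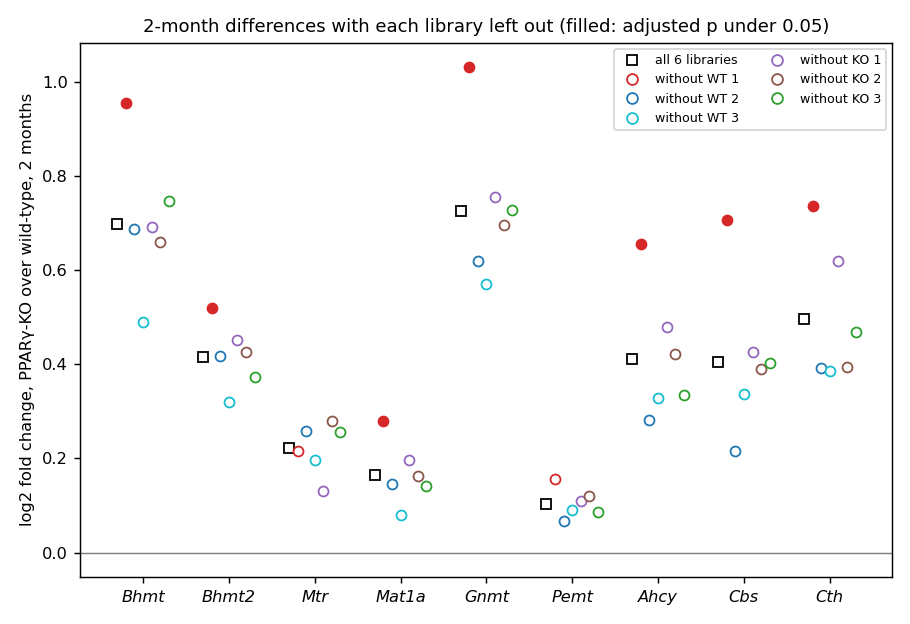
Log2 fold change at 2 months (vertical axis) of each enzyme with all 6 libraries (squares) and with each library left out (circles, by colour); filled symbols have an adjusted p under 0.05. The filled circles all belong to the fit without wild-type replicate 1, in which 7 enzymes passed.

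Whether the genotype difference itself changed between 2 and 5 months was tested as an interaction over all 12 libraries. It passed for 0 of the 9 enzymes in edgeR and 0 in DESeq2, where 1.57% of 15127 genes passed in edgeR, and 1 enzyme, Pemt, had an unadjusted p under 0.05 (log2 -0.23, SE 0.101, unadjusted p = 0.0355, adjusted p = 0.291). The largest fitted shifts were those of Cbs (log2 -0.55, SE 0.273, adjusted p = 0.392) and Cth (-0.51, SE 0.267, adjusted p = 0.414), toward a smaller difference at 5 months. Without wild-type replicate 1 at 2 months Cbs passed, with a shift of -0.84 (adjusted p = 0.00431). So the passing of 6 enzymes at 5 months and of 0 at 2 months does not show that the difference grew.

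The time on diet was compared within each genotype. Diet time and age rose together, and the tables of the 2 times carry dates of different years where gene names had been turned into dates, so time, age and any separate handling cannot be told apart. In wild-type, Mat1a and Mtr were lower and Pemt was higher at 5 months than at 2. That was 3 of 9, where 46.4% of 14491 genes tested passed, so the number that passed does not set these enzymes apart. Mat1a fell by 0.53 on the log2 scale (SE 0.115, adjusted p = 0.00322), from 2755 to 3607 CPM down to 2154 to 2190. Pemt rose by 0.37 (SE 0.0803, adjusted p = 0.00357), from 184 to 207 CPM up to 240 to 256. Mat1a, Pemt and Mtr were the 3 without overlap between the times, as were 56.8% of all genes. Mtr fell by 0.36 (SE 0.107, adjusted p = 0.0182), from 17.9 to 19.5 CPM down to 13.2 to 16.0, and lost its call without wild-type replicate 2 at 2 months (adjusted p = 0.0612) or wild-type replicate 1 or 3 at 5 months (0.0621 and 0.0666). Without wild-type replicate 1 at 2 months all 9 passed, 7 higher and 2 lower, with Cbs at log2 0.84 and Cth at 0.69. Macrophage markers summed to 499 to 644 CPM at 2 months and 1418 to 1662 at 5 months in wild-type, with 9 of 10 higher, and endothelial markers to 506 to 588 and 405 to 419, with 6 of 10 lower and 1 higher. Their part in the differences over time was not tested.

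In the libraries labelled PPARγ-KO, Bhmt, Bhmt2 and Gnmt rose with time and Mat1a fell, 4 of 9 where 44.9% of 14478 genes passed. Bhmt rose from 3331 to 3744 CPM at 2 months to 3943 to 4954 at 5 months (log2 0.33, SE 0.0873, adjusted p = 0.0105) and Bhmt2 from 214 to 239 CPM to 263 to 272 (0.24, SE 0.0598, adjusted p = 0.00714). Gnmt rose from 1044 to 1133 CPM to 1209 to 1356 (0.21, SE 0.0678, adjusted p = 0.0262). Mat1a fell by 0.31 (SE 0.0727, adjusted p = 0.00541), from 3378 to 3657 CPM to 2701 to 3101. The groups of 2 and 5 months did not overlap for these 4 and for Pemt and Mtr, which did not pass, where 55.6% of all genes did not overlap. Gnmt lost its call without PPARγ-KO replicate 1 or 3 at 2 months (adjusted p = 0.106 and 0.0558), without PPARγ-KO replicate 2 at 5 months (0.0898), with library size alone (0.0799) and in the fit of all 12 libraries (0.346), in which Bhmt lost its call too (0.178). Mat1a thus fell in both genotypes while its difference between them at 5 months was upward. Cbs and Cth, at log2 -0.011 and -0.067, did not pass. Over the same time macrophage markers went from 513 to 601 CPM to 668 to 891, with 5 of 10 higher and 2 lower, and endothelial markers from 517 to 556 to 346 to 369, with 8 of 10 lower and 1 higher, and the part of these shifts was not tested either.

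**Figure D4:**
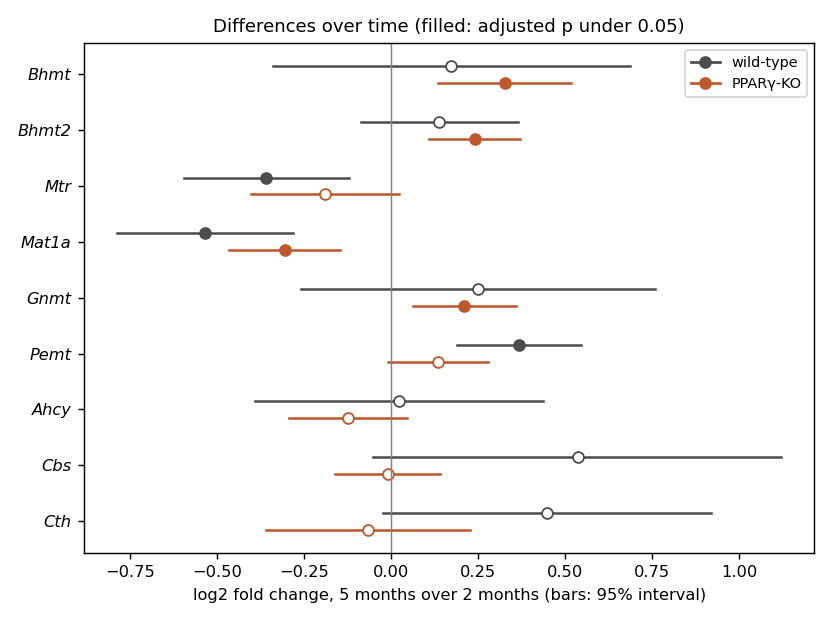
Log2 fold change of each enzyme at 5 months over 2 months (horizontal axis) in wild-type and in the libraries labelled PPARγ-KO; bars are 95% intervals and filled points have an adjusted p under 0.05. Mat1a lies left of 0 in both genotypes, Pemt and Mtr are filled in wild-type, and Bhmt, Bhmt2 and Gnmt are filled to the right of 0 in the libraries labelled PPARγ-KO.

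Genes of 6 neighbouring pathways gave the surroundings of these enzymes. The counts on these lists are to be read against the share of all genes tested that passed at 5 months, 8.9% higher and 9.51% lower, and nothing particular to a list is drawn from them. At 5 months the folate cycle list, which supplies Mtr with methyl groups, had 7 higher and 1 lower of 21 genes, with a median log2 fold change of 0.0423. Aldh1l1, which oxidizes formyltetrahydrofolate, rose from 624 ± 77.9 to 1048 ± 35.9 CPM (log2 0.76, adjusted p = 8.50e-05). Shmt1, the cytosolic serine hydroxymethyltransferase, rose from 126 ± 4.90 to 209 ± 9.36 CPM (0.75, adjusted p = 8.12e-06), and Mthfd1, which interconverts folates in the cytosol, from 165 ± 13.7 to 217 ± 5.49 (0.41, adjusted p = 0.00127). Mthfd1l, the mitochondrial formate-producing enzyme, was low and fell further, from 5.15 ± 0.613 to 1.33 ± 0.176 CPM (-1.94, adjusted p = 6.18e-05).

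In the betaine and choline list, whose oxidation steps supply Bhmt with betaine and dispose of its product, 2 of 8 genes were higher and 0 lower at 5 months (median 0.202). Dmgdh, which oxidizes the dimethylglycine that Bhmt releases, rose from 307 ± 17.9 to 524 ± 47.3 CPM (log2 0.78, adjusted p = 2.75e-05). Pipox, which oxidizes sarcosine, the product of Gnmt, rose from 163 ± 6.91 to 229 ± 1.91 CPM (0.50, adjusted p = 0.000116). Of the methionine cycle and salvage list, 2 of 14 were higher and 1 lower (median 0.0146), near the 18.4% of all genes that passed in either direction. Ahcyl1, related to Ahcy, was at 105 ± 3.42 and 134 ± 1.39 CPM (0.37, adjusted p = 0.000912), and Adi1, of methionine salvage, at 160 ± 14.2 and 208 ± 4.49 (0.38, adjusted p = 0.00214). Sat1, which acetylates polyamines, fell from 121 ± 10.5 to 73.7 ± 5.45 CPM (-0.70, adjusted p = 6.55e-05).

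On the cysteine, taurine and glutathione list 4 of 12 genes tested were higher at 5 months and 0 lower (median 0.0572), among them Cdo1, which oxidizes cysteine (1512 ± 77.9 and 1919 ± 58.6 CPM, log2 0.35, adjusted p = 0.00514), Ethe1, of sulfide oxidation (0.51, adjusted p = 0.000357) and Tst (0.31, adjusted p = 0.00909). Tst lost its call without wild-type replicate 2 or 3 (adjusted p up to 0.0593), and Cdo1 in the fit of all 12 libraries (0.141). For cobalamin handling, 2 of 9 genes, Abcd4 (0.54) and Mmab (0.48), were higher and 0 lower (median 0.0789), again near that share. Among 9 SAM-dependent small-molecule methylation genes, Gamt, which methylates guanidinoacetate to creatine, was higher (139 ± 1.85 and 213 ± 13.2 CPM, log2 0.63, adjusted p = 3.52e-05) and Gatm, the enzyme before it, was lower (18.8 ± 1.85 and 12.6 ± 0.987 CPM, -0.56, adjusted p = 0.00299), with a median of 0.0545.

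At 2 months the calls named on these lists were all higher: Aldh1l1 (log2 0.56, adjusted p = 0.0256), Shmt1 (0.47, adjusted p = 0.0198) and Gamt (0.39, adjusted p = 0.0333). Medians of the 6 lists ran from 0.00228 to 0.287. These 3 calls held without wild-type replicate 1. They were lost without either other wild-type replicate, without PPARγ-KO replicate 1 and without PPARγ-KO replicate 3, and those of Aldh1l1 and Gamt also without PPARγ-KO replicate 2. Adjusted p then reached 0.116 for Aldh1l1, 0.0988 for Shmt1 and 0.131 for Gamt. With library size alone Gamt did not pass. The folate cycle had 2 genes called, 4 with the replicate block and 8 without wild-type replicate 1. Cysteine, taurine and glutathione had 0, 2 and 3 in the same fits, and betaine and choline oxidation had 0, 1 and 6. Methionine cycle and salvage had 0, and 2 without wild-type replicate 1. Over all genes, of which 3.56% passed with all 6 libraries, the calls rose as well, from 519 to 817 with the block and 1577 without that replicate.

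**Figure D5:**
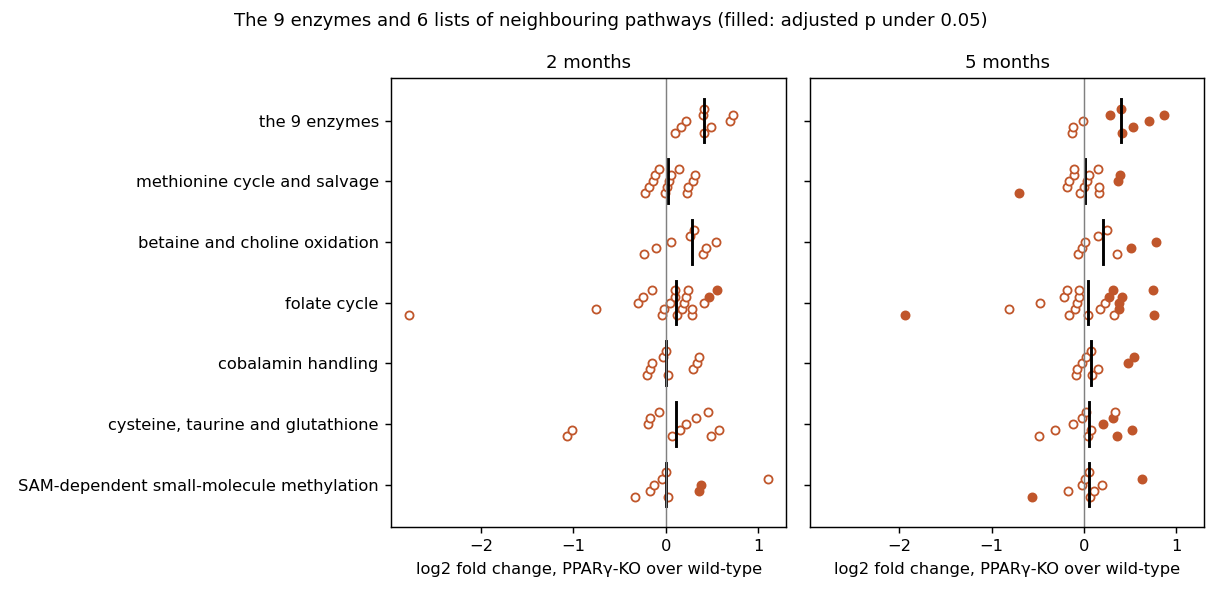
Log2 fold change in the libraries labelled PPARγ-KO over wild-type (horizontal axis) of the 9 enzymes and of the genes tested on each of 6 lists, at 2 and 5 months; circles are genes, filled where the adjusted p is under 0.05, and bars are list medians. The median of the 9 enzymes, 0.41 and 0.40, lies to the right of those of the 6 lists, of which betaine and choline oxidation is highest at 0.287 and 0.202. Members and lists were chosen with earlier results of these data known, so this order is not a test.

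Bhmt and Ahcy have near-identical copies with which reads could be shared. Of the 31-base words of the Ahcy gene model, 68.7% occur in Gm4737 and 35.3% in Gm9826, and of those of Bhmt 27.1% occur in Gm5096 and 15.6% in Bhmt-ps1, in GENCODE M21 transcripts. Copies held 16.7% to 19.6% of the summed counts of Ahcy and its copies and 9.96% to 11.5% of those of Bhmt. Gm5096 moved as Bhmt did, at 302 ± 33.1 and 551 ± 58.1 CPM at 5 months (SD, n = 3). With the copies added, an alternative chosen after seeing the data, the differences at 5 months were log2 0.86 for Bhmt (adjusted p = 0.000101) and 0.29 for Ahcy (0.0336), and no count of members changed. Bhmt and Bhmt2 shared 0.695% of the words of Bhmt. Gm15622, antisense inside Bhmt, held 23 to 226 counts, and Gm43314, on the strand of Cth and inside it, 9 to 134. Whether counting used the strand is not given, so reads of overlapping genes cannot be told apart.

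The genes with the nearest course over the 12 libraries were found as those with the smallest root mean square difference in mean-centred log2 CPM among 15127 genes. For Bhmt these were Gm5096 (0.0678), Gnmt (0.133) and Hapln4 (0.182), and for Gnmt they included Bhmt (0.133) and Gm5096 (0.143), while the SD of Bhmt and Gnmt themselves over the libraries was 0.495 and 0.452. Gnmt and Bhmt were thus among the nearest 3 of each other. Gm5096 is a near-identical copy of Bhmt with which reads could be shared, so its place beside Bhmt and Gnmt is no separate observation. Cth had Pigr (0.124), Hpd (0.126) and Cbs (0.136), and Cbs had Pigr (0.103), Rgn (0.113) and Fga (0.132). The remaining members had no other member among their nearest: Bhmt2 lay by Cdc42ep4, Lrrc3 and Fam234b, Mat1a by Abca6, Cpox and Ndst1, Ahcy by Pdcd4, Slc27a5 and Pxmp2, Pemt by Kptn, Eef2 and Bzw1, and Mtr by Utp20, Rapgef2 and Dapk1.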

How the data were processed

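Liver total RNA of 12 samples was sequenced by a company on an Illumina NovaSeq. The authors deposited raw read counts per gene for each sample, with gene names, coordinates and lengths. The methods name STAR and the submitters' processing notes HISAT2, both with mm10. The counting program, annotation version and strand setting are not given in the sources used here. Total counts per sample were 16367775 to 27452284. Each comparison used its own 6 libraries and the interaction all 12. In edgeR 4.0.16 (R 4.3.3, limma 3.58.1), genes were filtered by filterByExpr, scaled by TMM and tested by the robust quasi-likelihood F-test, two-sided, with Benjamini-Hochberg adjustment over all genes tested and a threshold of 0.05. Intervals use the degrees of freedom of that fit. DESeq2 1.42.0, other scalings and filters, a replicate block, a joint fit, 1.3-fold with unadjusted p, and each library left out were alternatives. On simulated data with 200 genes changed by log2 1.5, edgeR recovered 197 at 2 months (14459 genes) and 194 at 5 months (14369 genes). The simulated dispersion was the same for every gene. The change exceeded every genotype difference of the 9 enzymes fitted with all 6 libraries, at most log2 0.86. How often differences of their size and spread would be found was not measured. In the check of pairing, deviations of same-numbered samples correlated by 0.221, 0.325 and 0.139 at 2 months over 5000 genes, each above 0.1. At 5 months they correlated by -0.0743, -0.0621 and -0.187. Differently numbered samples correlated by -0.275 to 0.115 at 2 months and -0.0579 to 0.153 at 5 months. The same-numbered values thus all lay above the others at 2 months and all below them at 5 months. As the labels state no pairing, whether samples were matched at 2 months is not settled. No replicates were duplicates. Named were the 9 enzymes, Pparg, Hnf4a, up to 3 largest non-overlapping called rises and falls per pathway list and genotype comparison, and each member's 3 nearest genes. Copies and 3 targets of PPARγ (Plin2, Cidec and Cd36) were named after the data were seen. Members and lists were chosen with earlier results of these data known, and promoter sequences are from RefSeq. Some genes that these rules select are not reported here.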

Additional observations from a re-analysis of the deposited data

Results flagged for a closer look

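The genotype difference of Pparg was larger at 5 months than at 2 by log2 0.625 (SE 0.145, adjusted p = 0.0432 in edgeR's interaction test), with 39.3 ± 1.92 and 56.3 ± 8.85 normalized CPM at 2 months and 38.5 ± 2.54 and 84.9 ± 9.06 at 5 months in wild-type and in the libraries labelled PPARγ-KO (SD, 3 libraries each). That of Sat1, a polyamine acetyltransferase, was more negative at 5 months by -0.49 (SE 0.116, adjusted p = 0.0453), with 64.2 ± 3.42 and 54.9 ± 4.45 CPM at 2 months and 121 ± 10.5 and 73.7 ± 5.45 at 5 months. Each call held in 9 of 19 alternative fits, with adjusted p from 3.8e-05 to 0.122 for Pparg and from 0.0012 to 0.145 for Sat1. Pparg lost it with library size alone and without any 1 of wild-type replicates 2 and 3 and PPARγ-KO replicates 1 and 3 at 2 months, wild-type replicates 1, 2 and 3 and PPARγ-KO replicates 1 and 2 at 5 months. Sat1 lost it with library size alone, with the replicate block (0.0713) and without replicate 2 or 3 of any group.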

How the results depend on the processing

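Among the 9 enzymes, the count called at 2 months was 0, and it became 3 with an unadjusted p and 1.3-fold, 3 in DESeq2, 2 without a filter, 1 with the replicate block, 3 in the fit of all 12 libraries and 0 to 7 with 1 library left out, where only the fit without wild-type replicate 1 gave 7. At 5 months it was 6 and stayed between 4 and 6 in every alternative run. Over time in wild-type it was 3, with 1 for an unadjusted p and 1.3-fold, 5 with the replicate block and 2 to 9 with 1 library left out. Over time in the libraries labelled PPARγ-KO it was 4, with 0 for an unadjusted p and 1.3-fold and 2 in the fit of all 12. The interaction gave 0, and 0 to 1 with 1 library left out. The cause was not tested for these. Same-numbered samples did not all correlate above 0.1 at 5 months or over time. The replicate block changed no call of the 9 enzymes beyond those given, except Cbs (adjusted p = 0.0108) and Cth (0.00127) over time in wild-type. Signs turned, in these ranges with 1 library left out: Cth at 5 months, log2 -0.0815 to 0.126; over time in wild-type, Ahcy -0.11 to 0.268 (and -0.051 with library size alone) and Bhmt -0.0396 to 0.432, of which the upper ends, without wild-type replicate 1 at 2 months, passed; over time in the libraries labelled PPARγ-KO, Cbs -0.0529 to 0.0622 and Cth -0.189 to 0.0335; and in the interaction, Bhmt -0.0978 to 0.362 and Gnmt -0.339 to 0.117.

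Over all genes, 519 calls at 2 months became 988 in DESeq2, 1562 without a filter, 817 with the block, 1153 in the joint fit, 1608 with unadjusted p and 1.3-fold and 117 to 1577 with 1 library left out. At 5 months 2602 became 1593 at the least, without wild-type replicate 3. The interaction's 238 became 594 in DESeq2, 793 without a filter, 1563 with unadjusted p and 1.3-fold and 83 to 567 with 1 library left out. Library size alone moved the median of all genes by less than 0.1 and the calls from 259 higher and 260 lower to 171 and 349 at 2 months, and from 1258 and 1344 to 889 and 1894 at 5 months. Mtr, the lowest enzyme, held 223 to 557 counts per library, and the precision of all 9 is set mainly by the 3 libraries per group.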

Other observations

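Some genes that handle cysteine were higher at 5 months than at 2 in both genotypes. Of the cysteine, taurine and glutathione list, 5 of 12 genes tested were higher and 0 lower at 5 months than at 2 in wild-type, and 6 of 11 were higher and 0 lower in the libraries labelled PPARγ-KO, where 23.8% and 22.7% of all genes tested were higher and 46.4% and 44.9% passed in either direction. By fitted direction alone, 8 were up and 4 down in wild-type, and 8 up and 3 down under the label PPARγ-KO. The number that passed in either direction was near the share of all genes, and this list is 1 of 6, so it does not set the list apart. In wild-type the number called ran from 3, without wild-type replicate 1 at 5 months, to 6 with 1 library left out. Cdo1, which oxidizes cysteine to its sulfinate, went from 744 to 1210 CPM at 2 months to 1460 to 1600 at 5 months in wild-type (log2 0.74, SE 0.184, adjusted p = 0.0111) and from 1230 to 1330 to 1880 to 1990 in the libraries labelled PPARγ-KO (0.59, SE 0.0623, adjusted p = 3.05e-05). Ethe1, a mitochondrial enzyme of sulfide oxidation, rose by 0.82 (SE 0.138, adjusted p = 0.00143) and 0.86 (SE 0.0968, adjusted p = 6.35e-05). List medians were 0.224 and 0.264, against -0.0128 and -0.0111 over all genes tested. Shmt1, which moves one-carbon units from serine to folate, fell by 0.46 in wild-type (SE 0.0703, adjusted p = 0.000382), and its value in the libraries labelled PPARγ-KO was -0.20 (SE 0.0763, adjusted p = 0.0558). The difference between the genotypes in these changes did not pass for Cdo1 (adjusted p = 0.802), Ethe1 (0.951) or Shmt1 (0.236). Diet time, age and any separate handling of the 2 times cannot be told apart.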
